A study of Mus musculus with 18 samples.

Results

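The comparison described here sets the effect of deleting Hif1a against the effect of deleting Ahr in cultured mouse natural killer (NK) cells. NK cells are lymphocytes that kill infected or transformed cells. For each gene the log2 change from Hif1a flox to Hif1a KO cells was taken, the log2 change from Ahr flox to Ahr KO cells was subtracted, and this difference of effects was tested over all 16743 expressed genes. It uses 12 of the 18 RNA sequencing libraries in the series, 3 biological replicates in each of 4 groups. NK cells were taken from spleens of mice and cultured for 7 days with 1700 U/ml of human interleukin 2 (IL-2) at 1% oxygen. Hif1a flox cells were Hif1a fl/fl and Hif1a KO cells were Ncr1 iCre Hif1a fl/fl. Ahr flox cells were Ahr fl/fl and Ahr KO cells were Ncr1 iCre Ahr fl/fl. KO stands here for the genotype with Cre, which is driven from Ncr1, the gene of the NK receptor NKp46. Cre was on the KO side of both comparisons and no group had Cre alone, so an effect of Cre on the KO side cannot be told apart from an effect that the deletions share. The remaining 6 libraries (Hif1a fl/fl Ahr fl/fl with and without Ncr1 iCre, called the Hif1a Ahr line) entered the model and serve as libraries in which neither effect was measured.

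HIF-1 and the aryl hydrocarbon receptor (AhR) are transcription factors of the same protein family. HIF-1 forms when its alpha subunit, encoded by Hif1a, is stabilised in low oxygen and pairs with Arnt. AhR is held in the cytoplasm by chaperones, moves to the nucleus when a ligand binds, and pairs with the same Arnt. HIF-1 is best known for switching on glycolysis and glucose uptake, and AhR for switching on its own repressor Ahrr, the mono-ADP-ribosyltransferase Tiparp and enzymes of xenobiotic metabolism. In innate lymphocytes AhR is also linked to tissue residency and to the receptor Kit.

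Promoter windows are shown for genes on which the comparison turns and whose window holds the letters searched, a choice made after the windows were read. Each line holds the 250 bases before the annotated start, 5′ to 3′ on the gene's own strand, from RefSeq on GRCm38.p6. The first 4 genes encode mitosis proteins that were higher in Hif1a KO and lower in Ahr KO cells: the spindle motor Kif11, cyclin B2 (Ccnb2), topoisomerase II alpha (Top2a) and the mitotic ubiquitin-conjugating enzyme Ube2c. Capitals mark TTTGAA and CCAAT on either strand (so also TTCAAA and ATTGG), letters known from promoters of genes expressed late in the cell cycle.
Kif11, chr19:37376132-37376381, plus strand: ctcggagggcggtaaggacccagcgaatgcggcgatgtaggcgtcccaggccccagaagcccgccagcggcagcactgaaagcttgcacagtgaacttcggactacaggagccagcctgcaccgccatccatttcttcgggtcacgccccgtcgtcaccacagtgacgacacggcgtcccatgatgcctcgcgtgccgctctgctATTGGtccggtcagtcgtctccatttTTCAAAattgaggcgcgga
Ccnb2, chr9:70421555-70421804, minus strand: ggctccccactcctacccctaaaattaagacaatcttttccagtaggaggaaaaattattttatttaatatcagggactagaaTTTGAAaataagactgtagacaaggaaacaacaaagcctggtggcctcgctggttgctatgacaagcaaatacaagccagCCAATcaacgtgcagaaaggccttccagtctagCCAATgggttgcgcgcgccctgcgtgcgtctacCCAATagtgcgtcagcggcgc
Top2a, chr11:99024190-99024439, minus strand: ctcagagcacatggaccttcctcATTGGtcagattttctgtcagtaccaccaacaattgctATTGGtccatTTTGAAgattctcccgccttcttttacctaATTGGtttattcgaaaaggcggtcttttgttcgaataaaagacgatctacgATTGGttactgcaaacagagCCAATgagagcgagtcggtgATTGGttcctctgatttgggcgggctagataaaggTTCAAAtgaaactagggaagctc
Ube2c, chr2:164769679-164769928, plus strand: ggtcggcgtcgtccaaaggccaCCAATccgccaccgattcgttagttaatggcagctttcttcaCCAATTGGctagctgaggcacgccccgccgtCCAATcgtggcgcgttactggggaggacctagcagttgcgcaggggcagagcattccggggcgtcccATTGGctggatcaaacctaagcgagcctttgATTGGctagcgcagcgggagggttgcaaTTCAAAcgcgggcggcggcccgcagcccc
In the next 4 windows capitals mark GCGTG and ACGTG on either strand, core letters of the sites that Arnt binds with AhR or HIF-1. Hic1 and Ahrr are known AhR targets that fell with Ahr and were not called with Hif1a. Shares are given here for genes with a window. The letters GCGTG stood in 46.2% of AhR targets, 60.9% of HIF targets outside glycolysis and 41.2% of glycolysis genes, beside 43.5% of all genes tested. ACGTG stood in 15.4%, 47.8% and 41.2% of these lists, beside 21.4%. Slc2a1, a glucose transporter, and Pgk1, a glycolytic kinase, are known HIF targets that fell with Hif1a.
Hic1, chr11:75170256-75170505, minus strand: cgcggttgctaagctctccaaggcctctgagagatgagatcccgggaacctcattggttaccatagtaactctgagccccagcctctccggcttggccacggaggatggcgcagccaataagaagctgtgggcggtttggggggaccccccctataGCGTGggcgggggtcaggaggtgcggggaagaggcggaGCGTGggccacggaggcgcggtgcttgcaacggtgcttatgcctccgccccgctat
Ahrr, chr13:74292332-74292581, minus strand: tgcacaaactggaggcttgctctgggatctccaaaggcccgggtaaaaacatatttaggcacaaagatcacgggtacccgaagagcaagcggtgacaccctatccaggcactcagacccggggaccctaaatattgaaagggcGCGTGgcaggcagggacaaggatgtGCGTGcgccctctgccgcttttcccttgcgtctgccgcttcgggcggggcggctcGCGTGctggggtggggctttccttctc
Slc2a1, chr4:119108495-119108744, plus strand: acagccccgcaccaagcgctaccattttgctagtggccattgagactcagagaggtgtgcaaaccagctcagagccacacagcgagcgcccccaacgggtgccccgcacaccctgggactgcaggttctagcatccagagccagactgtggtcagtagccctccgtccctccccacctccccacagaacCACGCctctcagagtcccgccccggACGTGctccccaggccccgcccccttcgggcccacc
Pgk1, chrX:106186850-106187099, plus strand: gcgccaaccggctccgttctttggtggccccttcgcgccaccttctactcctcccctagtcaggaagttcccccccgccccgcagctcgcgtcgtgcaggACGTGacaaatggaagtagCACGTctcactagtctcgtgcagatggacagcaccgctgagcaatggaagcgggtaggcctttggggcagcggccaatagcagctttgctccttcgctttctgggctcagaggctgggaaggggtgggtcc
A window was found for 11050 of the 16743 genes tested. Among these, CCAAT stood in 36.4%, TTTGAA in 11.3%, GCGTG in 43.5% and ACGTG in 21.4%. Genes higher in Hif1a KO and lower in Ahr KO cells (363 with a window) held CCAAT in 51.0% and TTTGAA in 17.1%. Genes with the opposite pattern (119 with a window) held them in 28.6% and 5.04%. GCGTG stood in 44.6% and 43.7% of these 2 classes and ACGTG in 17.6% and 20.2%. A match is a description of the letters in the window, and matches of different motifs can overlap.

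The labelled cell type was checked against marker genes. The summed level of 13 NK identity genes was 30200 to 35500 CPM (counts scaled to library size) in Hif1a flox and 22200 to 24700 in Hif1a KO cells, and 28800 to 38300 in Ahr flox and 35100 to 41300 in Ahr KO cells, with no gene at 0. Over the 12 libraries dendritic cell markers summed to 236 to 409 CPM, plasma cell markers to 235 to 383, stroma and endothelium markers to 220 to 342 and macrophage and monocyte markers to 24.3 to 56.1. Erythroid, platelet and B cell markers summed to at most 0.639, 2.99 and 1.38 CPM. Dendritic cell markers were at 236 to 276 CPM in Hif1a flox and 337 to 409 in Hif1a KO cells, and at 272 to 289 in Ahr flox and 273 to 305 in Ahr KO cells. Neutrophil markers were at 1.75 to 8.88 CPM in Hif1a flox and 0.0853 to 0.138 in Hif1a KO cells, and at 0.829 to 2.20 in Ahr flox and 0.733 to 2.46 in Ahr KO cells. Library totals ran from 54420649 to 55732940 counts. In bulk RNA, fewer cells that express a gene and less of its RNA per cell cannot be told apart.

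The targeted genes came first. Hif1a stood at 64.9, 59.5 and 56.5 CPM in Hif1a flox replicates 1 to 3 and at 182, 147 and 211 in Hif1a KO. Ahr flox libraries gave 59.5, 61.3 and 66.8 CPM and Ahr KO libraries 65.2, 67.6 and 68.9. The gene-level Hif1a count was thus higher where Hif1a was targeted, by 1.58 on the log2 scale, and the difference of effects was 1.47 ± 0.15 (standard error, SE; adjusted p = 1.59e-06 by edgeR's quasi-likelihood test with Benjamini-Hochberg adjustment, used for all adjusted p-values below). Ahr stood at 73.8, 77.0 and 78.5 CPM in Ahr flox and at 90.7, 88.6 and 97.0 in Ahr KO cells (log2 change 0.27, adjusted p = 0.515). Counts summed over a gene include transcripts that lack a deleted exon, so they check neither deletion. Arnt, the shared partner, stood at 46.9, 47.1 and 50.5 CPM in Hif1a flox and at 65.5, 68.6 and 62.5 in Hif1a KO cells. The Ahr line gave 52.9, 49.6 and 49.0 CPM in flox and 43.6, 47.0 and 42.2 in KO cells. The KO and flox libraries did not overlap in either line. Arnt rose with the Hif1a deletion (0.44, adjusted p = 6.01e-05), its Ahr effect was -0.19 (adjusted p = 0.103), and the effects differed (0.63 ± 0.10, adjusted p = 6.68e-05).

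The flox groups of the lines were not alike at every gene. Ahr itself stood at 27.7, 39.3 and 27.7 CPM in Hif1a flox cells, below all Ahr flox libraries (log2 difference -1.27 ± 0.21, SE, adjusted p = 0.0135). Of 16743 genes, 42 (0.251%) were called between Hif1a flox and Ahr flox, called meaning an adjusted p under 0.05. Of these 13 lay on chromosome 17 (815 tested), 11 on chromosome 12 (606 tested), which holds both Hif1a and Ahr, and 6 on chromosome 11. The part of these differences in the results below was not tested. The classes were also formed with the mean of both flox groups as baseline.

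The deletions acted in opposite directions on most genes that both changed. In Hif1a KO cells 2948 genes (17.6% of those tested) were called higher and 2972 (17.8%) lower. In Ahr KO cells 357 (2.13%) were called higher and 800 (4.78%) lower. Both comparisons called 773 genes, and 631 of these (81.6%) moved in opposite directions: 454 (2.71% of all genes tested) were higher in Hif1a KO and lower in Ahr KO cells, and 177 (1.06%) were lower in Hif1a KO and higher in Ahr KO cells. In the same direction, 100 genes (0.597%) were lower and 42 (0.251%) higher after both deletions. Of the 800 genes that fell with Ahr, 56.8% rose with Hif1a, beside 17.6% of all genes, and 12.5% fell, beside 17.8%. Of the 357 that rose with Ahr, 49.6% fell with Hif1a and 11.8% rose. The comparisons share no library.

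Seen from the Hif1a side the shares were smaller, since far fewer genes were called with Ahr. Of the 2948 genes that rose with Hif1a, 15.4% fell with Ahr and 1.42% rose. Of the 2972 that fell, 5.96% rose with Ahr and 3.36% fell. Across the 16743 genes the effects had a Pearson correlation of -0.173 and a Spearman correlation of -0.298, given as a description only, since genes are not independent replicates. Opposite signs were found in 62.7% of all genes. The plot of both effects shows the 454 and 177 opposed genes in the lower right and upper left quadrants.

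**Figure D1:**
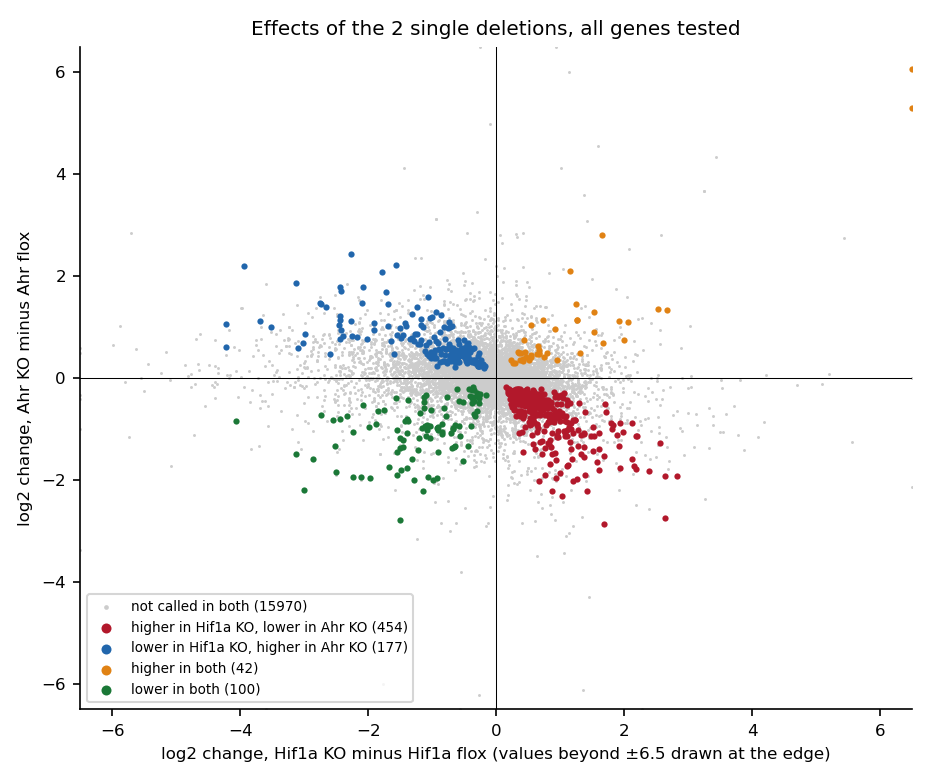
Each point is one of the 16743 genes tested, with the log2 change from Hif1a flox to Hif1a KO cells on the x axis and from Ahr flox to Ahr KO cells on the y axis; values beyond the axis limits are drawn at the edge. Coloured points were called in both comparisons: 454 and 177 with opposite directions, 42 and 100 with the same direction.

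The difference of effects itself was called higher for Hif1a in 2784 genes (16.6%) and lower in 2634 (15.7%). It was called in all 631 opposed genes, which being called in opposite directions in the same fit favours. Most calls lay elsewhere: 1815 of the higher calls were genes called higher in Hif1a KO only, and 2022 of the lower calls were genes called lower in Hif1a KO only. Of the 142 genes that moved the same way, 36 had a called difference (16 higher and 20 lower). A further 310 and 320 genes had a called difference although neither deletion alone was called.

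Counts built on the Ahr comparison moved with single libraries, named here by group and replicate number. The 454 and 177 became 194 and 49 without Ahr flox 1, 245 and 49 without Ahr flox 3, 207 and 58 without Ahr KO 2, and 299 and 92 without Ahr KO 3; the 177 became 86 without Ahr KO 1. With same-numbered replicates paired as a block they were 848 and 611. With the mean of both flox groups as baseline, 359 of the 454 and 138 of the 177 were still called with both directions. The sign of both effects held for all 631 genes in every fit made, except that 11 of them were not tested under the filter at 1 CPM in 3 libraries. Genes chosen as called in both comparisons of these libraries are likely to keep their signs by that choice.

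In the 454 genes the effects were of similar size, with a median of 0.59 on the log2 scale for Hif1a (0.16 to 2.83) and -0.48 for Ahr (-2.86 to -0.18). In 449 of them the KO and flox libraries overlapped in neither line, and 49 changed at least 2-fold in both. Over all 16743 genes these counts were 3011 and 333, and genes called in both comparisons are likely to be apart by their choice. In the 177 genes the medians were -0.78 (-4.23 to -0.17) and 0.57 (0.20 to 2.44), with no overlap in 174 and at least 2-fold changes in 33. The Ahr effect was the larger in 157 of the 454 and 47 of the 177, beside 5266 of all 16743 genes.

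Between the lines, the flox libraries overlapped in the mean over the 454 genes, and few single genes were called. Choosing genes higher in Hif1a KO and lower in Ahr KO cells favours low Hif1a flox and high Ahr flox values. The values and counts below are thus drawn from values that formed the classes. The mean log2 CPM of the 454 genes was 4.58, 4.75 and 4.61 in Hif1a flox and 4.95, 4.69 and 4.85 in Ahr flox replicates 1 to 3. In both lines replicate 2 stood nearest to the other line. edgeR called 0 of the 454 genes between these flox groups. At an unadjusted p under 0.05 the count was 122 lower and 1 higher in Hif1a flox, DESeq2 called 3 lower, and limma called 0. Of the 177 genes edgeR called 1, the peptide hormone gene Apln, which was lower in Hif1a flox.

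Of 15 tested AhR targets 8 fell with Ahr, and 4 of these rose with Hif1a. In Ahr KO cells 0 rose, also at an unadjusted p under 0.05 and with DESeq2 and limma, beside 2.13% of all genes, and 4.78% of all genes fell. In Hif1a KO cells 5 rose and 2 fell, beside 17.6% and 17.8% of all genes. The list's median effect was -1.13 for Ahr and 0.43 for Hif1a on the log2 scale, beside 0.00 and -0.01 over all genes, and the Hif1a median was 0.91 without Hif1a flox 2, 0.28 without Hif1a flox 1 and 0.14 without Hif1a KO 2. The difference of effects was called in 10, of which 9 were higher. Opposed were Nqo1, Ugt1a7c, Nfe2l2 and Ifit2, and these 4 became 6 with the replicate block, 5 with DESeq2 and 2 without Ahr KO 2 or without Ahr KO 3.

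Nqo1, a quinone reductase, stood at 0.492, 1.01 and 0.888 CPM in Hif1a flox cells and at 5.24, 5.82 and 6.04 in Hif1a KO. Its Ahr flox values were 1.04, 0.741 and 0.891 CPM and its Ahr KO values 0.275, 0.213 and 0.207. The groups overlapped in neither line, and the flox groups stood at a like level. Its effects were 2.83 and -1.93, a difference of 4.76 ± 0.38 (adjusted p = 7.32e-08). Nfe2l2, the gene of the antioxidant regulator NRF2, stood at 22.3, 26.4 and 23.7 CPM in Hif1a flox and 58.4, 62.3 and 56.5 in Hif1a KO cells. The Ahr line gave 32.7, 23.0 and 25.8 CPM in flox and 21.3, 17.1 and 19.4 in KO cells. The Hif1a groups stood far apart, while the highest Ahr KO library lay just below the lowest Ahr flox library. Its effects were 1.29 and -0.50 (difference 1.79 ± 0.17, adjusted p = 6.02e-07). In the list of NRF2 and antioxidant genes, 7 of 23 rose and 5 fell with Hif1a, beside 17.6% and 17.8% of all genes. In this list 0 rose and 2 fell with Ahr, beside 2.13% and 4.78%, and those 2, Nqo1 and Nfe2l2, were the opposed ones. At an unadjusted p under 0.05 there was 1 rise with Ahr, and DESeq2 and limma called 0. The glucuronidation enzyme gene Ugt1a7c rose by 2.19 and fell by 1.13 (adjusted p = 0.00222 for Ahr); the Ugt1a genes share exons, so counts among them are uncertain.

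Hic1, Ahrr and Asb2 had the largest falls with Ahr among the targets described here, and edgeR did not call their Hif1a effects. The transcriptional repressor gene Hic1 stood at 75.3, 34.3 and 48.7 CPM in Ahr flox and 9.66, 4.1 and 5.36 in Ahr KO cells. In the Hif1a line it stood at 26.4, 45.0 and 31.8 CPM in flox and 70.4, 96.7 and 59.2 in KO cells. No KO library overlapped the flox libraries of its line, in opposite directions. The Ahr effect was -3.05 (adjusted p = 0.00174), the Hif1a effect 1.13 missed the threshold (adjusted p = 0.05003), and the difference was 4.18 ± 0.62 (adjusted p = 2.16e-04). Ahrr, the AhR repressor, had effects of -2.85 for Ahr (adjusted p = 0.00297) and 0.41 for Hif1a (adjusted p = 0.506), and a difference of 3.25 ± 0.63 (adjusted p = 0.00148). Asb2, a ubiquitin ligase subunit, had effects of -2.85 (adjusted p = 1.81e-04) and -0.13 (adjusted p = 0.769), and a difference of 2.72 ± 0.43 (adjusted p = 3.16e-04). For Tiparp the Ahr effect of -1.19 missed the threshold (adjusted p = 0.0759), and the classical targets Cyp1a1 and Cyp1b1 were at or below 1.52 CPM in all 12 libraries. Selenbp1 was the only target of the list that fell after both deletions (-1.40 and -0.79; adjusted p = 2.27e-05 and 0.0123).

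Cell cycle genes rose together with Hif1a and fell together with Ahr. All 30 tested members rose in Hif1a KO cells (0.34 for Cdk1 to 0.86 for Kif11) and 25 fell in Ahr KO cells, where effects ran from -0.71 for Kif23 to -0.28 for Ccne1. The medians were 0.51 and -0.44 on the log2 scale. The difference of effects was called higher in all 30, from 0.69 for Cdk1 to 1.51 for Kif23, beside 16.6% of all genes, with a median of 0.99 and 0.80 with the mean of both flox groups as baseline. The 25 opposed members included the cyclins Ccna2, Ccnb1 and Ccnb2, the kinases Cdk1, Plk1, Aurka, Aurkb and Bub1, and the kinetochore genes Cenpe, Cenpf and Nuf2. The count was 29 with the replicate block, 21 with the mean of both flox groups as baseline, 13 without Ahr flox 1, 17 without Ahr flox 3 and 12 without Ahr KO 2.

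Kif23, a motor protein of cytokinesis, stood at 68.4, 82.6 and 70.7 CPM in Hif1a flox and at 121, 135 and 128 in Hif1a KO cells. Its Ahr flox values were 92.0, 79.9 and 90.8 CPM and its Ahr KO values 56.9, 46.9 and 56.4. The 4 groups ranked Ahr KO below Hif1a flox and Ahr flox below Hif1a KO, with overlap only between the flox groups. Its effects were 0.80 and -0.71 (difference 1.51 ± 0.14, adjusted p = 6.40e-07). Top2a stood at 561, 642 and 548 CPM in Hif1a flox and at 912, 1010 and 978 in Hif1a KO cells. Values in the Ahr line were 685, 632 and 662 CPM in flox and 504, 431 and 518 in KO cells. Again no KO library overlapped its own flox group (0.73 and -0.45; difference 1.17 ± 0.15, adjusted p = 1.27e-05). The mean log2 CPM over the 30 genes was 6.47, 6.66 and 6.48 in Hif1a flox and 7.03, 7.13 and 7.12 in Hif1a KO cells. It was 6.84, 6.61 and 6.75 in Ahr flox and 6.36, 6.11 and 6.38 in Ahr KO cells. In each group but Hif1a KO, replicate 2 was the farthest from the others.

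The promoter windows of Kif11, Ccnb2, Top2a and Ube2c printed above come from this list. Of its 23 members with a window, CCAAT stood in 73.9% and TTTGAA in 30.4%, beside 36.4% and 11.3% of all genes tested. GCGTG stood in 60.9% and ACGTG in 34.8%, beside 43.5% and 21.4%.

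Of 24 DNA replication genes tested, 13 rose and 0 fell with Hif1a, beside 17.6% and 17.8% of all genes. With Ahr 0 rose and 5 fell, beside 2.13% and 4.78%, so edgeR did not call most members on the Ahr side. All 24 Ahr effects were negative, from -0.46 for Rrm2 to -0.1 for Mcm6. At an unadjusted p under 0.05 the falls with Ahr were 18, and DESeq2 called 10 and limma 5. The median effects were 0.24 and -0.24, and the difference was called higher in 20. For the falls and rises at 0, no gene was counted at an unadjusted p under 0.05 or by DESeq2 or limma either. The 5 opposed genes were the ribonucleotide reductase subunits Rrm1 and Rrm2, the thymidine kinase Tk1, the replication helicase factor Cdc45 and the flap endonuclease Fen1. Rrm2 stood at 292, 332 and 282 CPM in Hif1a flox and 463, 507 and 474 in Hif1a KO cells. Values in the Ahr line were 404, 327 and 366 CPM in flox and 275, 239 and 286 in KO cells. No KO library overlapped its flox group (0.67 and -0.46; difference 1.13 ± 0.16, adjusted p = 3.16e-05). The count of 5 was 11 with the replicate block, 8 with DESeq2 and 2 with the mean of both flox groups as baseline. It was 0 without Ahr flox 1, Ahr flox 3 or Ahr KO 2, 2 without Hif1a flox 1 or Hif1a KO 3, and 3 without Ahr KO 1, Hif1a flox 3, Hif1a KO 1 or Hif1a KO 2.

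Among 29 transcription factors of NK cells and other innate lymphoid cells, 8 rose and 7 fell with Hif1a, and 3 rose and 6 fell with Ahr. Of all genes 17.6% rose and 17.8% fell with Hif1a, and 2.13% rose and 4.78% fell with Ahr, and the same shares stand beside the list counts that follow. Opposed were Tcf7, Rora and Maf, higher in Hif1a KO and lower in Ahr KO cells, and Eomes, with the reverse pattern. Tcf7, the gene of the early lymphocyte factor TCF-1, stood at 14.3, 27.2 and 17.9 CPM in Hif1a flox and at 95.3, 125 and 90.7 in Hif1a KO cells. In the Ahr line it stood at 24.7, 11.2 and 21.5 CPM in flox and at 6.71, 3.91 and 5.64 in KO cells. Hif1a KO cells stood above and Ahr KO cells below every flox library of both lines (2.39 and -1.82; difference 4.21 ± 0.54, adjusted p = 6.30e-05). Rora, a nuclear receptor needed for group 2 innate lymphoid cells, stood at 13.4, 19.6 and 11.7 CPM in Hif1a flox and 25.6, 33.3 and 23.4 in Hif1a KO cells. Ahr flox libraries gave 18.9, 15.3 and 15.9 CPM and Ahr KO libraries 3.46, 3.27 and 4.02. The same order of groups held (0.88 and -2.22; difference 3.10 ± 0.39, adjusted p = 3.58e-05). Eomes, a T-box factor of mature NK cells, stood at 340, 287 and 338 CPM in Hif1a flox and 228, 166 and 244 in Hif1a KO cells. The Ahr line gave 230, 312 and 261 CPM in flox and 423, 492 and 435 in KO cells. Its order was reversed, with KO and flox apart in each line and Hif1a KO and Ahr flox overlapping (-0.60 and 0.75; difference -1.35 ± 0.22, adjusted p = 2.15e-04). Tbx21, the related factor T-bet, rose with Hif1a (0.53, adjusted p = 7.04e-04) and had an Ahr effect of -0.26 (adjusted p = 0.153); the difference was called (0.79 ± 0.15, adjusted p = 5.01e-04).

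Cytokine and chemokine receptors held 6 opposed genes of 27 tested. With Hif1a 9 rose and 7 fell, with Ahr 1 rose and 7 fell. Kit, the receptor of stem cell factor, stood at 194, 235 and 218 CPM in Hif1a flox and at 416, 491 and 381 in Hif1a KO cells. In the Ahr line it stood at 345, 201 and 283 CPM in flox and at 94.0, 67.0 and 67.6 in KO cells. KO and flox libraries were apart in both lines (0.99 and -1.86; difference 2.85 ± 0.31, adjusted p = 9.24e-06). Kit also marks mast cells. The 8 mast cell and basophil markers summed to 126 to 174 CPM in Hif1a flox, 9.49 to 34.7 in Hif1a KO, 96.9 to 121 in Ahr flox and 170 to 214 in Ahr KO cells. That sum is nearly all Mcpt8, a basophil gene, and the part of mast cells in the Kit values was not tested. Il12rb2, a subunit of the interleukin 12 receptor, stood at 314, 422 and 272 CPM in Hif1a flox and at 703, 941 and 543 in Hif1a KO cells. Its Ahr flox values were 611, 312 and 428 CPM and its Ahr KO values 169, 116 and 131. The groups were again apart in each line, with a wide spread in Ahr flox (1.12 and -1.70; difference 2.82 ± 0.46, adjusted p = 3.88e-04). Its partner subunit Il12rb1 fell in both (-0.31 and -0.65; adjusted p = 0.00111 and 7.59e-06). The interleukin 18 receptor chain Il18rap (difference 1.18 ± 0.20), the interleukin 21 receptor Il21r (0.86 ± 0.11) and the chemokine receptor Cxcr3 (1.95 ± 0.24) were also higher in Hif1a KO and lower in Ahr KO cells. Il10ra, the interleukin 10 receptor, had the reverse pattern (-0.55 and 0.57; difference -1.12 ± 0.18, adjusted p = 1.54e-04).

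NK receptors split. Of 31 tested, 13 rose and 7 fell with Hif1a, 1 rose and 5 fell with Ahr, and the list's medians were 0.23 and 0.01. Of all genes 17.6% and 17.8% did so with Hif1a and 2.13% and 4.78% with Ahr. The opposed members Klrc3, Klri2, Klra8 and Cd96 were all higher in Hif1a KO and lower in Ahr KO cells. Cd96, a receptor for nectin-family ligands, stood at 198, 214 and 193 CPM in Hif1a flox and at 304, 337 and 262 in Hif1a KO cells. Values in the Ahr line were 256, 221 and 239 CPM in flox and 96.4, 102 and 94.2 in KO cells. No KO library overlapped a flox library of either line (0.58 and -1.29; difference 1.87 ± 0.14, adjusted p = 3.46e-08). Klri2, a lectin-like receptor, had nearly equal effects of 0.47 and -0.45 (difference 0.92 ± 0.10, adjusted p = 2.30e-06). Klrc3 and Klra8 belong to families of near-identical genes, so their counts are uncertain.

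The list of type 1 innate lymphoid cell (ILC1) and tissue residency genes had medians of 0.39 for Hif1a and -0.51 for Ahr. Of 18 tested, 5 rose and 4 fell with Hif1a, and 1 rose and 5 fell with Ahr. Cxcr3, Kit and Il21r were opposed, while the integrin gene Itga1 fell with Hif1a (-1.88, adjusted p = 4.02e-06) with an Ahr effect of 0.30 (adjusted p = 0.415). The list's Hif1a median rested on few libraries: it was -0.14 without Hif1a KO 2, 0.17 without Hif1a flox 1, 0.59 without Hif1a flox 2, 0.09 without Hif1a flox 3 and 0.08 with the mean of both flox groups as baseline. The list of circulating mature NK genes had medians of -0.21 and 0.50, the latter 0.26 with the mean of both flox groups as baseline. In it 4 of 18 rose and 7 fell with Hif1a, 2 rose and 0 fell with Ahr, and the 2 that rose, Eomes and Ly6c2, were the opposed ones. At an unadjusted p under 0.05 there was 1 fall with Ahr, and DESeq2 and limma called 0. Ly6c2, a surface protein of circulating lymphocytes, stood at 21.4, 23.8 and 31.6 CPM in Hif1a flox and at 5.52, 9.08 and 9.19 in Hif1a KO cells. In the Ahr line it stood at 19.2, 32.2 and 20.9 CPM in flox and at 61.7, 72.5 and 64.8 in KO cells. The flox groups overlapped and the KO groups stood on either side of them (-1.69 and 1.46; difference -3.16 ± 0.36, adjusted p = 1.85e-05).

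Interferon response genes rose with Hif1a in 15 of 28 and fell in 1, with a median of 0.44. With Ahr 2 rose and 4 fell (median -0.07). Opposed were the transcription factor Irf7, the viral RNA sensor Ifih1 and Ifit2, with differences of 1.14 ± 0.19, 1.25 ± 0.19 and 1.64 ± 0.20. Irf7 stood at 10.5, 10.3 and 9.53 CPM in Hif1a flox and 16, 15.9 and 13.0 in Hif1a KO cells, and at 12.1, 10.4 and 11.2 in Ahr flox and 7.61, 7.70 and 7.31 in Ahr KO cells. No KO library overlapped the flox libraries of either line (adjusted p of the difference 1.58e-04).

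**Figure D2:**
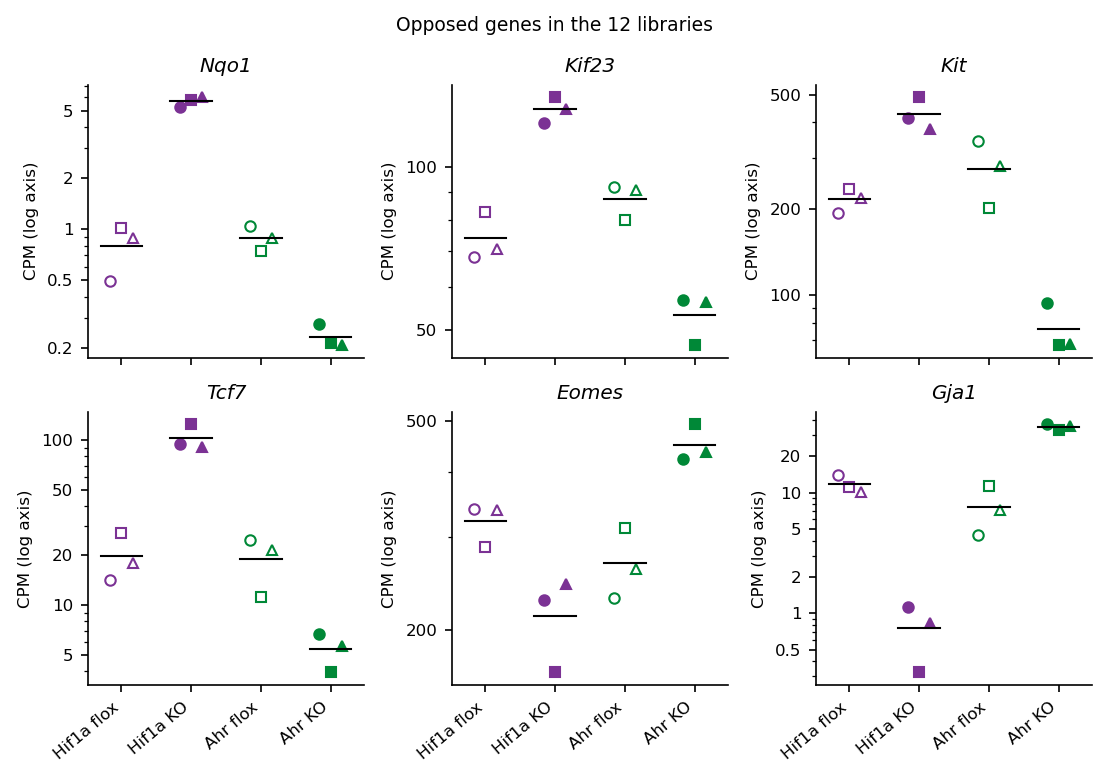
CPM on a log axis for 6 opposed genes in the 12 libraries; circles, squares and triangles are replicates 1, 2 and 3, open for flox and filled for KO cells, and bars are group means. Nqo1, Kif23, Kit and Tcf7 were higher in Hif1a KO and lower in Ahr KO cells, Eomes and Gja1 the reverse, with no overlap of KO and flox libraries within a line.

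The largest paired effects among genes higher in Hif1a KO and lower in Ahr KO cells, whether in a list or not, were in Capn3, Nqo1, Tcf7, Emb, Sla, Paqr5, Tnfsf8 and Cnrip1. Sla, an adaptor of antigen receptor signalling, stood at 15.7, 18.9 and 17.0 CPM in Hif1a flox and 78.4, 81.0 and 69.9 in Hif1a KO cells. Ahr flox libraries gave 21.1, 16.4 and 21.4 CPM and Ahr KO libraries 6.07, 5.69 and 5.94. Replicates of each KO group lay close together, far from the flox libraries (2.15 and -1.73; difference 3.89 ± 0.22, adjusted p = 5.25e-09). Emb, the glycoprotein embigin that escorts monocarboxylate transporters, had effects of 1.94 and -1.77 (difference 3.71 ± 0.39, adjusted p = 1.07e-05). The calpain protease Capn3 had the largest difference of the class, at 5.38 ± 0.89 (adjusted p = 4.57e-04), with a mean of 6.65 CPM over the 12 libraries. Tnfsf8, the ligand of CD30, had effects of 2.12 and -1.58 (difference 3.70 ± 0.43, adjusted p = 2.16e-05).

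Among the 177 genes lower in Hif1a KO and higher in Ahr KO cells, the largest paired effects were in Fibcd1, Gja1, Mamdc2, Tspan32, Slc27a6, Ramp1, Ly6c2 and Cdc20b. Gja1, the gap junction protein connexin 43, stood at 13.9, 11.1 and 10.1 CPM in Hif1a flox and at 1.12, 0.324 and 0.831 in Hif1a KO cells. The Ahr line gave 4.41, 11.4 and 7.11 CPM in flox and 36.8, 33.0 and 35.4 in KO cells. Both KO groups stood clear of all flox libraries, on opposite sides (-3.94 and 2.20; difference -6.14 ± 0.54, adjusted p = 1.89e-06). Slc27a6, a fatty acid transporter, stood at 74.1, 53.2 and 73.7 CPM in Hif1a flox and 10.9, 7.28 and 11.6 in Hif1a KO cells. Its Ahr flox values were 38.8, 78.7 and 48.5 CPM and its Ahr KO values 144, 164 and 154. Ahr flox 2 was the highest flox library, and the KO groups were clear of it (-2.76 and 1.48; difference -4.24 ± 0.50, adjusted p = 3.52e-05). Ramp1, a subunit of the receptor for the neuropeptide CGRP, had effects of -2.09 and 1.48 (difference -3.57 ± 0.39, adjusted p = 2.67e-06). Apln had the smallest adjusted p of any difference of effects, at 17.5, 21.0 and 19.4 CPM in Hif1a flox and 1.00, 1.11 and 0.954 in Hif1a KO cells. Values in the Ahr line were 29.9, 25.5 and 31.6 CPM in flox and 47.2, 36.3 and 48.7 in KO cells. Its Ahr effect was the smaller by far, though without overlap (-4.23 and 0.60; difference -4.84 ± 0.18, adjusted p = 1.29e-11).

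Several lists of markers of other cells had summed levels that differed in the same directions as this class. A sum follows its most abundant genes. Of the 8 mast cell and basophil markers 3 were tested. Mcpt8, a basophil protease, stood at 163, 124 and 171 CPM in Hif1a flox and 28.6, 8.48 and 33.5 in Hif1a KO cells. In the Ahr line it stood at 95.1, 119 and 97.7 CPM in flox and at 210, 193 and 167 in KO cells. It fell with Hif1a (-2.70, adjusted p = 2.02e-04), its Ahr effect was 0.87 (adjusted p = 0.214), and the difference was -3.57 (adjusted p = 3.07e-04). The mast cell protease Cpa3 had a difference of -2.02 (adjusted p = 0.00431) at 0.802 to 3.87 CPM, Tpsb2 was at 0 in all replicates of every group but Ahr KO, and Mcpt4 in those of every group but Hif1a KO. Markers of group 2 and 3 innate lymphoid cells, 11 genes, summed to 49.3 to 66.4 CPM in Hif1a flox, 35.6 to 59.7 in Hif1a KO, 38.7 to 59.9 in Ahr flox and 79 to 104 in Ahr KO cells, with Il17a at 0 in all of these groups and the Hif1a groups overlapping. The median effects of the 6 tested genes went the other way, at 0.313 for Hif1a and -0.131 for Ahr. Plasma cell markers summed to 293 to 313 CPM in Hif1a flox, 235 to 264 in Hif1a KO, 282 to 316 in Ahr flox and 367 to 383 in Ahr KO cells. Stroma and endothelium markers summed to 298 to 328, 220 to 249, 252 to 279 and 287 to 342 CPM in the same order, with Col3a1 at 0 in all of these groups. Macrophage and monocyte markers went the other way in their sum. It was 34.4 to 43.2, 52.1 to 56.1, 31.6 to 55.5 and 24.3 to 30.4 CPM in the same order. C1qa was at 0 in all of these groups but Hif1a flox. The median effects of the 5 tested genes of this list had the directions of the 177 genes, at -1.894 for Hif1a and 0.765 for Ahr. The part of these marker lists in the results was not tested.

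Most opposed genes lay outside the 29 programme lists, which held 51 of the 454 and 7 of the 177. Programme and marker lists together held 689 genes, not all of them tested, beside 16743 genes tested. The share of all tested genes that lay in the programme lists was not counted. Cytotoxic effectors held 1 opposed gene of 22, the granule transport GTPase Rab27a (-0.67 and 0.44; adjusted p = 4.62e-04 and 0.0444). With Hif1a 5 of these 22 rose and 11 fell, beside 17.6% and 17.8% of all genes. The difference was called higher in 4 and lower in 10, beside 16.6% and 15.7%. Prf1, the pore protein perforin, fell with Hif1a (-2.32, adjusted p = 5.97e-05) and had an Ahr effect of 0.77 (adjusted p = 0.155), with a called difference of -3.09 ± 0.43 (adjusted p = 9.61e-05). Other single opposed genes were the TCA cycle enzyme subunit Dlst and the complex I subunit Ndufa10 (higher in Hif1a KO and lower in Ahr KO cells), and the AP-1 factor Fosl2 and the TGF-beta binding protein Ltbp3 (the reverse). Their lists had 19, 38, 21 and 20 tested genes. Counts of 1 in lists of this size are near the 631 opposed of all 16743 genes and show nothing about the lists.

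Lipid synthesis genes had opposite signs, but the Ahr side was called in few. All 21 cholesterol synthesis genes tested fell with Hif1a (-1.55 for Mvd to -0.51 for Srebf2; median -1.17). With Ahr all 21 effects were positive (0.08 to 0.43, median 0.22), yet edgeR, DESeq2 and limma called 0 higher or lower. At an unadjusted p under 0.05 there were 1 higher and 0 lower. None of these fits paired the replicates. The list's mean log2 CPM in Ahr flox and Ahr KO was 7.509 and 7.819, 7.532 and 7.72, and 7.465 and 7.661 for replicates 1 to 3. The difference was called lower in all 21, beside 15.7% of all genes. Hmgcs1, an early enzyme of the pathway, stood at 822, 695 and 1020 CPM in Hif1a flox and 309, 241 and 394 in Hif1a KO cells. Ahr flox libraries gave 783, 777 and 683 CPM and Ahr KO libraries 1080, 991 and 887. The libraries did not overlap within either line. In fatty acid synthesis 12 of 15 fell and 2 rose with Hif1a, and 1 rose and 1 fell with Ahr. The opposed members were Acaca, the rate-limiting carboxylase (-0.24 and 0.29; adjusted p = 0.0367 and 0.0471), and the elongase Elovl5 in the other direction (0.63 and -0.34; adjusted p = 2.71e-06 and 0.00737).

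Glycolysis and other HIF targets changed with Hif1a and hardly with Ahr, so the difference followed the Hif1a effect. Of 18 glycolysis genes 17 fell with Hif1a, and with Ahr 1 fell, the hexokinase Hk2. The median effects were -2.17 and -0.01. Of 29 HIF targets outside glycolysis 28 fell with Hif1a (medians -2.14 and 0.04). With Ahr edgeR, DESeq2 and limma called 0 of these in either direction, with 2 higher and 2 lower at an unadjusted p under 0.05. Slc2a1 stood at 468, 416 and 510 CPM in Hif1a flox and 91.0, 78.7 and 86.3 in Hif1a KO cells. The Ahr line gave 463, 496 and 452 CPM in flox and 553, 563 and 528 in KO cells. Its libraries did not overlap in either line, but the Ahr effect of 0.22 missed the threshold (adjusted p = 0.155; difference -2.66 ± 0.13, adjusted p = 2.10e-10).

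Mitochondrially encoded genes had effects of the same sign throughout. All 13 rose with Hif1a (median 0.73), and with Ahr all 13 effects were positive (median 0.26, 0.03 to 0.63). With Ahr edgeR called 0 in either direction, as did DESeq2 and limma, with 3 higher at an unadjusted p under 0.05. These fits did not pair the replicates. The list's mean log2 CPM in Ahr flox and Ahr KO was 8.627 and 8.893, 9.068 and 9.371, and 8.847 and 9.111 for replicates 1 to 3. The difference was called only for mt-Co2 by edgeR (0.56 ± 0.19, adjusted p = 0.0319) and in 4 by DESeq2. In nuclear-encoded respiratory chain genes 7 of 38 rose and 1 fell with Hif1a, 0 rose and 1 fell with Ahr, and the difference was called higher in 10. The share that rose with Hif1a is near the 17.6% of all genes and shows nothing about the list. No rise with Ahr was counted at an unadjusted p under 0.05 or by DESeq2 or limma. The plot of list medians shows these cases beside each other.

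**Figure D3:**
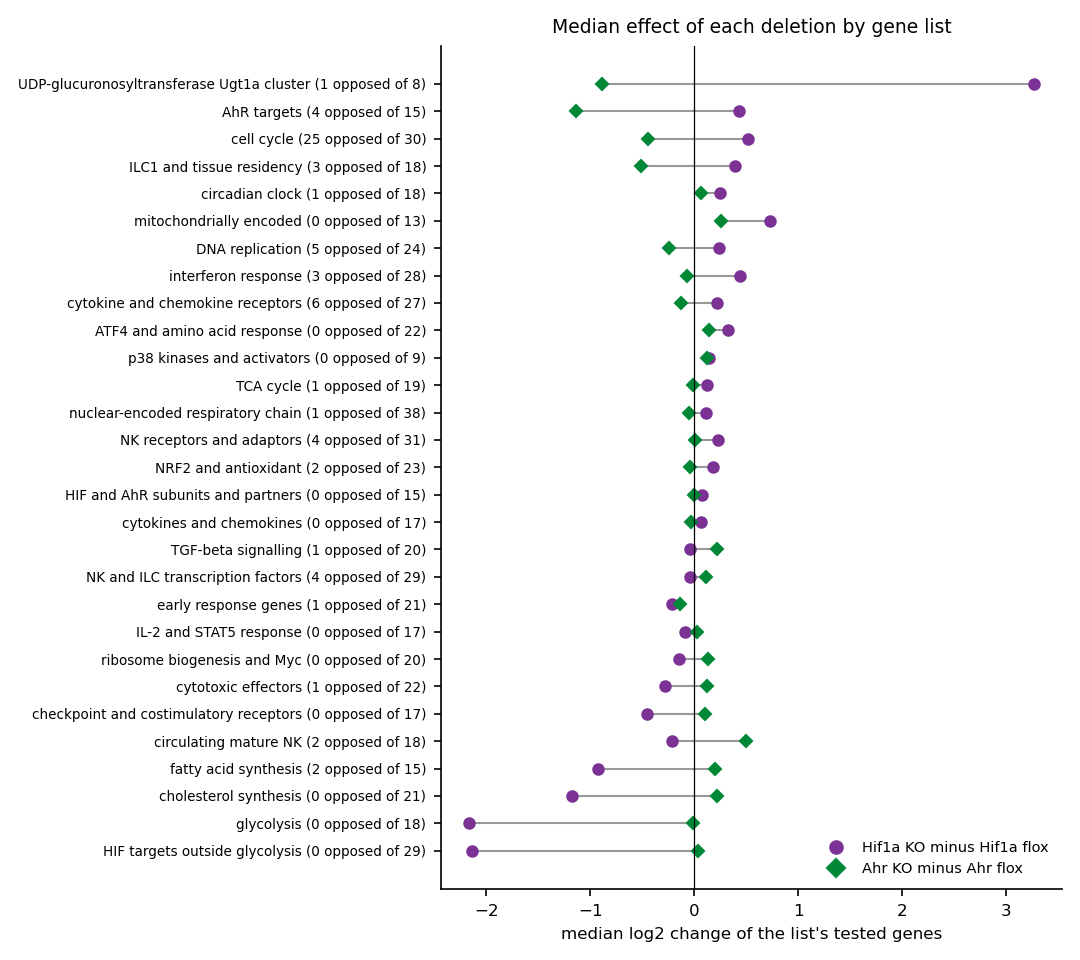
Median log2 change of the tested genes of each of the 29 programme lists, circles for Hif1a KO minus Hif1a flox and diamonds for Ahr KO minus Ahr flox, ordered by the median difference of effects. The cell cycle (0.51 and -0.44) and AhR target lists (0.43 and -1.13) lie on both sides of 0, while the diamonds of glycolysis (-0.01) and HIF targets (0.04) lie near 0.

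Genes on which the deletions agreed were few. The 100 that fell after both had medians of -1.09 for Hif1a and -0.94 for Ahr, and the 42 that rose had 0.70 and 0.54. KO and flox libraries overlapped in neither line for any of the 142, beside 3011 of all 16743 genes, which being called in both comparisons favours. With the mean of both flox groups as baseline 37 of the 42 and 90 of the 100 were still called. The counts of 42 and 100 were 108 and 181 with the replicate block, 19 and 62 without Ahr flox 1, 23 and 64 without Ahr flox 3, 27 and 66 without Ahr KO 2, and 25 and 62 without Ahr KO 3. Of list genes, the checkpoint receptor list held Pdcd1 (higher in both, at no more than 0.353 CPM) and Tnfrsf18 (lower in both), and the IL-2 response list held the cytokine Lif (higher) and the kinase Pim2 (lower).

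Ncr1 and both its neighbours rose with each deletion, with neighbours taken among tested genes without Gm, Rik or clone names. Ncr1 stood at 116, 131 and 116 CPM in Hif1a flox and 209, 219 and 258 in Hif1a KO cells. Its Ahr flox values were 101, 118 and 119 CPM and its Ahr KO values 208, 204 and 249. The levels in the lines were alike (0.92 and 0.97; difference -0.05 ± 0.15, adjusted p = 0.828). Lilra5 rose by 7.06 and 6.07 (adjusted p = 5.94e-05 and 1.65e-04) at a mean of 0.215 CPM, and Gp6 by 1.16 and 2.10 (adjusted p = 0.00415 and 6.58e-05) at 0.558 CPM. The next genes outward, Leng9 and Rdh13, were called in neither. Ncr1 drives Cre in the KO cells of all lines.

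Lif, a cytokine of the interleukin 6 family, stood at 2.25, 3.17 and 3.04 CPM in Hif1a flox and 11.1, 13.0 and 11.4 in Hif1a KO cells. Values in the Ahr line were 1.49, 1.37 and 1.51 CPM in flox and 3.41, 2.96 and 3.04 in KO cells. It rose in both lines from flox levels that differed (2.06 and 1.11; difference 0.96 ± 0.25, adjusted p = 0.00748). The guanylate binding protein gene Gbp3 rose by 0.75 and 0.42 (adjusted p = 1.51e-07 and 0.00104). Among genes that fell, the adhesion receptor gene Adgrg1 stood at 98.8, 113 and 108 CPM in Hif1a flox and 16.8, 15.8 and 6.98 in Hif1a KO cells. In the Ahr line it stood at 151, 122 and 156 CPM in flox and at 33.8, 32.6 and 26.7 in KO cells. Both KO groups stood far below their flox groups (-3.01 and -2.20; difference -0.81 ± 0.55, adjusted p = 0.300). Ifitm1, an antiviral membrane protein, fell by 1.51 and 1.38 (adjusted p = 4.97e-05 and 0.00101), and its neighbours Ifitm2 and Ifitm3 on chromosome 7 fell in both too. These are related genes, and whether their counts share reads was not tested. The purinergic channel gene P2rx7 fell by 1.39 and 1.76 (adjusted p = 0.00316 and 0.00539) and the ETS factor Erg by 1.67 and 1.75 (adjusted p = 3.16e-04 and 0.00145).

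Cd3g, a chain of the T cell receptor complex, stood at 41.2, 52.8 and 67.6 CPM in Hif1a flox and 5.43, 8.63 and 4.45 in Hif1a KO cells. Ahr flox libraries gave 78.6, 65.5 and 78.3 CPM and Ahr KO libraries 25.6, 26.2 and 26.9. It fell in both and more with Hif1a (-3.12 and -1.50; difference -1.62 ± 0.44, adjusted p = 0.0118). The 14 T cell markers together summed to 640 to 714 CPM in Hif1a flox, 514 to 551 in Hif1a KO, 655 to 699 in Ahr flox and 599 to 650 in Ahr KO cells, with no gene at 0 in a whole group. Their part in the fall of Cd3g was not tested.

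A stretch of chromosome 9 held 16 of the 100 genes lower in both, chosen after its values were seen. From Ppib to Bnip2 lie 21 tested genes, both included, with genes of Gm, Rik or clone names left out. The 16 had a median of -1.005 for Hif1a and -0.995 for Ahr, and the difference of effects was called in 6 of the 21. Chromosome 9 held 24 of the 100 in all, of 943 tested genes. Rora lies inside the stretch and was opposed, Trip4 and Csnk1g1 just before it rose in both, and 84 of the 100 were not among the 21. The plot of the stretch shows both effects near -1 in most of its genes.

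**Figure D4:**
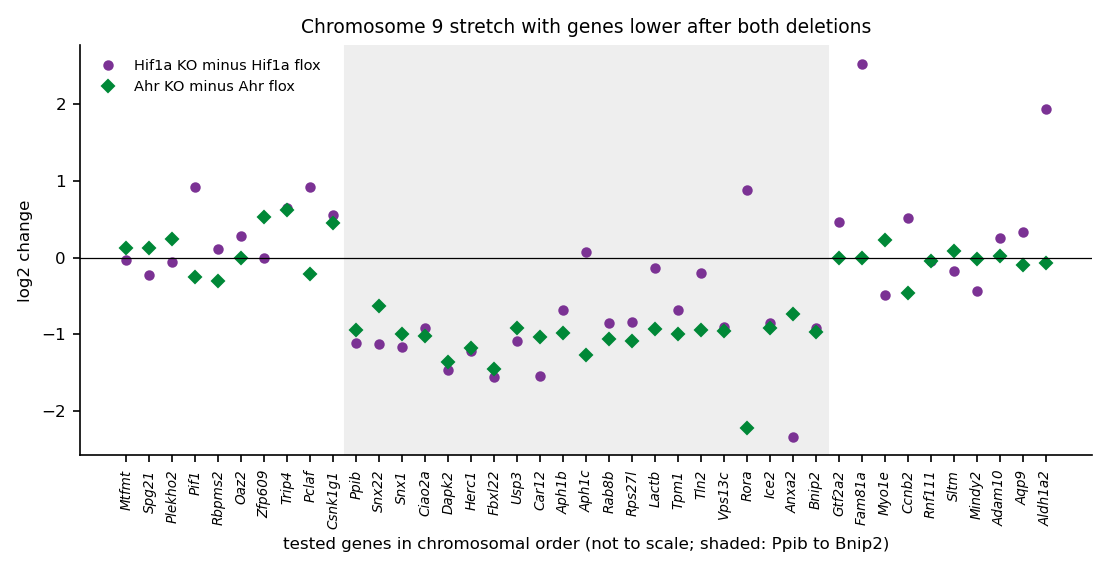
Log2 change of tested genes in chromosomal order (not to scale), circles for Hif1a KO minus Hif1a flox and diamonds for Ahr KO minus Ahr flox. Genes with Gm, Rik or clone names are left out, and the shaded genes run from Ppib to Bnip2. Of the 21 shaded genes 16 were called lower in both, and Rora was 0.88 with Hif1a and -2.22 with Ahr.

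The effect in the Hif1a Ahr line was not used to choose the 4 classes, though its libraries shared the filter and the estimate of spread, and a fit without them gave other class sizes. There 2486 genes (14.8%) were called higher and 2756 (16.5%) lower in KO than in flox cells. Of the 454 genes 69 were called higher and 56 lower, shares near those of all genes, and the median effect was 0.01, between the Hif1a and Ahr effects in 437. Over all genes 8192 of 16743 lay between, and the choice of opposed effects widens that interval. Of the 177 genes 30 were higher and 32 lower, with a median of 0.00, and 166 lay between. Of the 42 genes that rose with each single deletion, all 42 rose, with a median of 1.12. Of the 100 that fell, 98 fell, with a median of -1.48. For the cell cycle list the median was -0.04, and 1 of 30 was called higher. Kif23 had an effect of -0.11 (adjusted p = 0.446), Nqo1 of 0.47 (adjusted p = 0.163) and Gja1 of -1.07 (adjusted p = 0.0329). Some opposed genes followed one deletion: Tcf7 rose by 1.82 (adjusted p = 0.00181), Kit fell by 1.21 (adjusted p = 6.44e-04) and Eomes rose by 0.77 (adjusted p = 0.00127).

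In the mean over the 454 genes, Hif1a Ahr KO libraries stood at 4.88, 4.76 and 4.85 and their flox libraries at 4.94, 4.60 and 4.86 log2 CPM. Hif1a KO libraries stood at 5.32, 5.43 and 5.30 and Ahr KO libraries at 4.27, 4.10 and 4.22. The KO libraries of the Hif1a Ahr line thus lay within the range of flox libraries, and the single KO groups on either side. For the 177 genes Hif1a Ahr KO libraries stood at 4.04, 4.07 and 4.13, with Hif1a KO at 3.42, 3.21 and 3.47 and Ahr KO at 4.96, 4.98 and 4.92. The plot of class means shows replicate 2 of the flox groups apart from replicates 1 and 3 in the opposed classes.

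**Figure D5:**
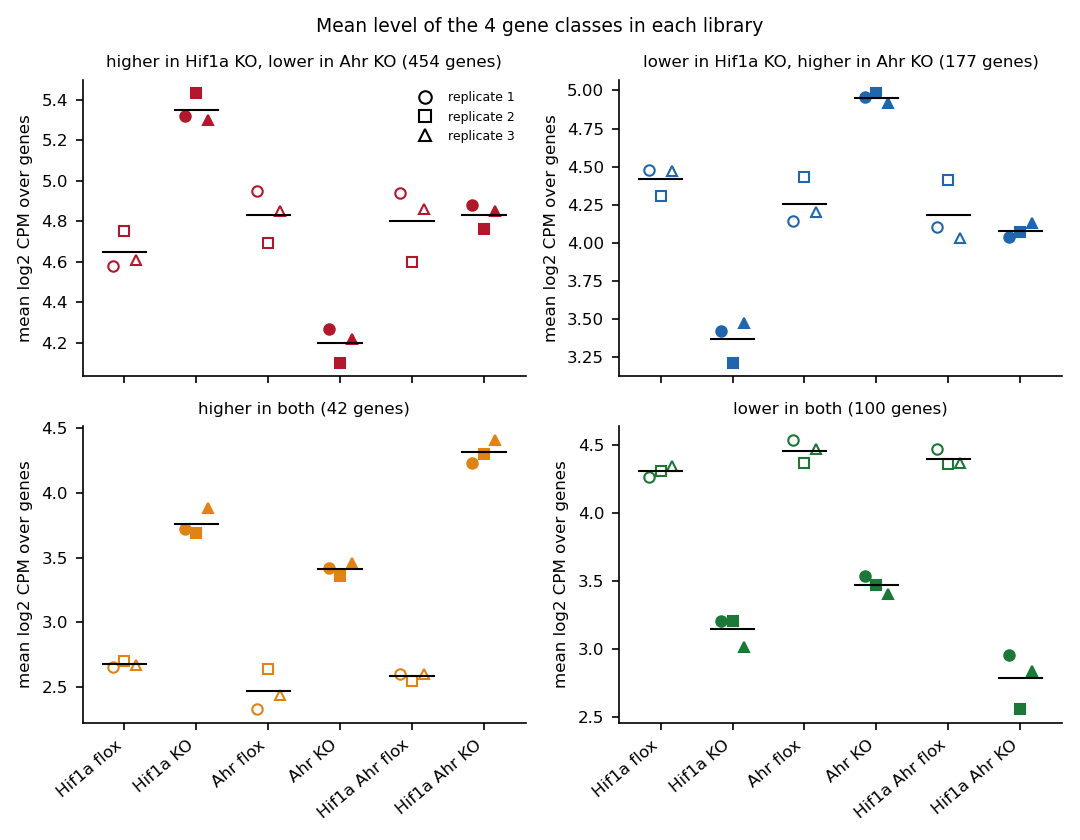
Mean log2 CPM over the genes of each class in all 18 libraries; circles, squares and triangles are replicates 1, 2 and 3, open for flox and filled for KO cells, and bars are group means. In both opposed classes the Hif1a KO and Ahr KO libraries lie on opposite sides of the Hif1a Ahr KO libraries, while in the other classes all KO groups lie on one side.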

How the data were processed

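RNA was sequenced on a DNBSEQ platform from strand-specific mRNA libraries, per the labels' protocols, which call the samples of a group biological replicates. How animals or cultures relate to replicates is not stated further, so p-values measure the spread between these samples, which may be technical. Trim Galore 0.6.4, kallisto 0.4.6, edgeR 3.17 and GRCm39 are named in the submitters' processing notes. The authors deposited expected counts per gene, with estimates that need not be whole, and log2 CPM values. The expected counts were rounded to whole numbers and used here; the deposited log2 values were not used for tests.

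Of 56953 genes 16743 passed edgeR's filter by group (edgeR 4.0.16, R 4.3.3). With TMM scaling and robust quasi-likelihood fits over all 18 libraries, 6 group means and 12 residual degrees of freedom, each effect and the difference of effects were tested and p-values adjusted by Benjamini-Hochberg over all genes; called means an adjusted p under 0.05. Printed CPM values are TMM-scaled, and log2 CPM values used a prior count of 2. Alternatives were DESeq2 1.42.0 and its size factors, limma 3.58.1, other filters on low counts, unrounded counts, 12 libraries only, a replicate block, the mean of both flox groups as baseline and each replicate left out.

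Same-numbered KO and flox replicates deviated together over genes at 5 CPM or more. Correlations were 0.315, 0.53 and 0.296 in the Hif1a line and 0.363, 0.333 and 0.534 in the Ahr line. All were over 0.1, so the numbers were taken to pair the samples. This pairing comes from the data, not from a label. Only the replicate block used it, so the adjusted p-values and calls of all other fits ignore the pairing. On simulated counts, 34% of 50 genes with a log2 difference of effects of 0.5 were recovered, 72% at 1, 98% at 2 and 96% at 3, with 7 false calls over 16415 genes.

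The members and lists were chosen with earlier results of these data known, and list counts are descriptions with no test of the list. All 689 list genes matched the gene table. Named genes were Hif1a, Ahr, Ncr1, Arnt, Ahrr, Tiparp and Nqo1; in each class the 8 genes at 1 CPM or more with the largest smaller effect and no overlap; the 6 smallest adjusted p of the difference in each direction; up to 4 genes of a list by that p and every list gene called in both; and neighbours of Ncr1 and runs of neighbouring genes. Other genes named were chosen after their values were seen. Promoter windows came from RefSeq on GRCm38.p6 and gene order from an annotation of that earlier build, used without coordinates.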

Additional observations from a re-analysis of the deposited data

Results flagged for a closer look

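The effects of the deletions differed by the test of the difference itself in 2784 genes that were higher and 2634 that were lower for Hif1a, counted with edgeR at an adjusted p under 0.05. Among genes higher in Hif1a KO and lower in Ahr KO cells, the log2 difference of effects was 5.38 for Capn3, 4.76 for Nqo1, 4.21 for Tcf7, 3.71 for Emb, 3.89 for Sla, 3.41 for Paqr5, 3.70 for Tnfsf8 and 2.95 for Cnrip1. Among genes with the reverse pattern it was -4.71 for Fibcd1, -6.14 for Gja1, -3.87 for Mamdc2, -3.78 for Tspan32, -4.24 for Slc27a6, -3.57 for Ramp1, -3.16 for Ly6c2 and -2.57 for Cdc20b. In each of these 16 genes no KO library overlapped its flox group, which was part of how they were chosen.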

How the results depend on the processing

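The difference of effects kept its counts within 1.5 times under every alternative run. Counts that need the Ahr comparison did not. With same-numbered replicates paired as a block, 1033 genes were called higher and 1388 lower in Ahr KO cells, the opposed classes held 848 and 611 genes, and the agreed classes 108 higher and 181 lower. The blocked fit shared 452 of the 454, 174 of the 177, 39 of the 42 and 98 of the 100 genes. DESeq2 called 583 genes higher in Ahr KO, 301 opposed genes lower in Hif1a KO, and 67 agreed higher. A fit of the 12 libraries alone gave 608, 335 and 73. With the mean of both flox groups as baseline 70 genes agreed higher, and the median difference of effects was 1.435 for AhR targets, 0.798 for cell cycle, 0.294 for ILC1 and 0.742 for interferon genes. In that fit the Hif1a median was 0.083 for ILC1 genes and -0.071 for HIF and AhR partners, a reversed sign (0.074 before). The cause of these shifts was not tested.

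Leaving out 1 library at a time, opposed counts ran from 194 to 534 and from 49 to 227, agreed counts from 19 to 43 higher and from 62 to 98 lower, and Ahr calls from 110 to 441 higher and from 357 to 896 lower. The difference of effects ran from 2412 to 2697 higher and from 2155 to 2564 lower, and Hif1a calls from 2380 to 2967 higher and from 2405 to 2960 lower. The median difference of effects ran from 1.56 to 2.546 for AhR targets, from 0.289 to 0.713 for ILC1 and from 0.371 to 0.648 for interferon genes. Hif1a medians ran from 0.143 to 0.914 for AhR targets, from -0.145 to 0.59 for ILC1, from 0.391 to 0.553 for interferon genes and from -0.385 to -0.178 for circulating mature NK genes. For NK transcription factors the median difference ran from -0.092 to 0.108 and the Hif1a median from -0.096 to 0.008, so neither has a stable sign. Among agreed genes, the difference of effects lost its call in some fits for Ms4a4c and Phactr3. Simulated differences of effects of 0.5 on the log2 scale were recovered in 34% of 50 genes, so small differences of effects can be missed at this depth and replication.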
